A study of Mus musculus with 23 samples.

Results

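The 35 genes described here belong to the unfolded protein response and the integrated stress response. They were taken by symbol from the deposited count tables, where all 35 were found among 41073 genes. By role they are 14 chaperones and folding factors of the endoplasmic reticulum (ER), 4 genes of ER-associated degradation, 5 sensors and transducers, 6 factors of the integrated stress response, and 6 enzymes of amino acid and one-carbon metabolism. RNA was sequenced in bulk from EpCAM-positive lung epithelial cells of wild-type C57BL/6 mice, given as C57BL/6J in the series text, whose age the labels do not give. Cultures on transwells at an air-liquid interface, given NTHi, non-typeable Haemophilus influenzae, which colonises airways, and harvested on day 4, made up 7 libraries. Untreated cultures of day 4 gave 7, and the earlier untreated stages were freshly isolated cells with 3 libraries and cells on the day of airlift, when the upper face is first exposed to air, with 6. Neither the dose nor the strain of NTHi is given in the labels. Each group was present in each of 3 experiments, called A, B and C.

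Proteins that enter the secretory route fold in the ER with the help of chaperones, lectins and disulfide isomerases. When unfolded protein builds up, the membrane sensors IRE1 (gene Ern1), PERK (Eif2ak3) and ATF6 raise the output of chaperones and of the degradation machinery, in part through the factor XBP1. PERK and other kinases of the initiation factor eIF2 also slow translation while favouring that of ATF4, which drives amino acid supply genes and, with CHOP (Ddit3), feedback and death genes; this second arm is the integrated stress response. Secretory cells of the lung, among them club, goblet and alveolar type 2 (AT2) cells, pass a large cargo through the ER.

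Each library held between 32323375 and 39081663 counts. Levels are CPM on TMM-scaled library totals and are comparable between groups for a gene but not between genes, since they are not divided by length. Changes are log2 fold changes with their standard error, and a gene was called when its edgeR quasi-likelihood test, adjusted by Benjamini-Hochberg over all genes tested, fell below 0.05. Nothing in the labels says that replicates were separate animals or cultures, so p-values measure the spread between these libraries, which may be technical. In the labels the cells are airway epithelium. Epcam averaged 237, 334, 532 and 422 CPM in fresh, airlift, NTHi and control libraries, and fresh cells were also rich in AT2 transcripts, with Sftpc between 51920 and 71090 CPM beside Scgb1a1, the main club cell product, between 144900 and 156600 CPM. Transcripts of other cells were present, and in bulk RNA fewer cells of a type and less RNA per cell cannot be told apart. A control library (C1) and an NTHi library (C3), both of experiment C, stood apart from their group and are described separately further on.

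Promoter sequences are shown first for 8 members, because they carry the elements through which the factors of these pathways are known to act. RefSeq windows of the build GRCm38.p6, from 250 bases before to 50 after a gene's start, were at hand for 30 of the 35 members and for 27025 genes in all. Both strands were searched for the ER stress response element ERSE (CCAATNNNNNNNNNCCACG), for ERSE-II (ATTGGNCCACG), for the core of the unfolded protein response element (TGACGTGG) and for the C/EBP-ATF response element CARE (TGATGNAA). In the sequences, read 5′ to 3′ on the strand of the gene, capitals mark the fixed letters of a match on either strand, and each line ends before the start of transcription.
Hspa5: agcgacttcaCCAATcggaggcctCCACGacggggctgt
Hsp90b1: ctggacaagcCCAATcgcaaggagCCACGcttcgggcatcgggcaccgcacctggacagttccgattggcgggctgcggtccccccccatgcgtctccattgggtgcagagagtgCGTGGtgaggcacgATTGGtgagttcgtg
Calr: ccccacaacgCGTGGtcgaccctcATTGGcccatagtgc
Pdia6: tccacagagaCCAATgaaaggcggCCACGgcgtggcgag
Creld2: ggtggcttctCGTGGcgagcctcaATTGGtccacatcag
Herpud1: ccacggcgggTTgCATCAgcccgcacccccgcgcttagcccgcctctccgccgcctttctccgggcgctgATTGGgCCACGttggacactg
Asns: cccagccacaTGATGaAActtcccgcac
Chac1: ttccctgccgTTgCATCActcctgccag

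In the order printed, the stretches lie at chr2:34772015-34772053 (plus strand), chr10:86705523-86705666 (minus), chr8:84847065-84847103 (minus), chr12:17266481-17266519 (plus), chr15:88819510-88819548 (plus), chr8:94386307-94386397 (plus), chr6:7693215-7693242 (minus) and chr2:119351039-119351066 (plus) of GRCm38.p6. ERSE was found in 8 of 30 members, or 26.7%, and in 37 of 27025 genes, or 0.137%. The 8 were Hspa5, Hsp90b1, Calr, Canx, Pdia6, Dnajc3, Creld2 and Syvn1, and 7 of them are among the 12 chaperone genes with a window. Hsp90b1 held a pair of ERSE matches that face in opposite directions. ERSE-II was found in Herpud1 and Dnajb11, which is 6.67% of the members against 0.0444% of all genes. CARE was found in Asns, Chac1, Herpud1 and Trib3, which is 13.3% against 4.51%, and the core of the unfolded protein response element in 0 of 30 members against 0.714%. No pair of printed matches overlapped. A match is a description of these letters and not a bound site.

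**Figure D1:**
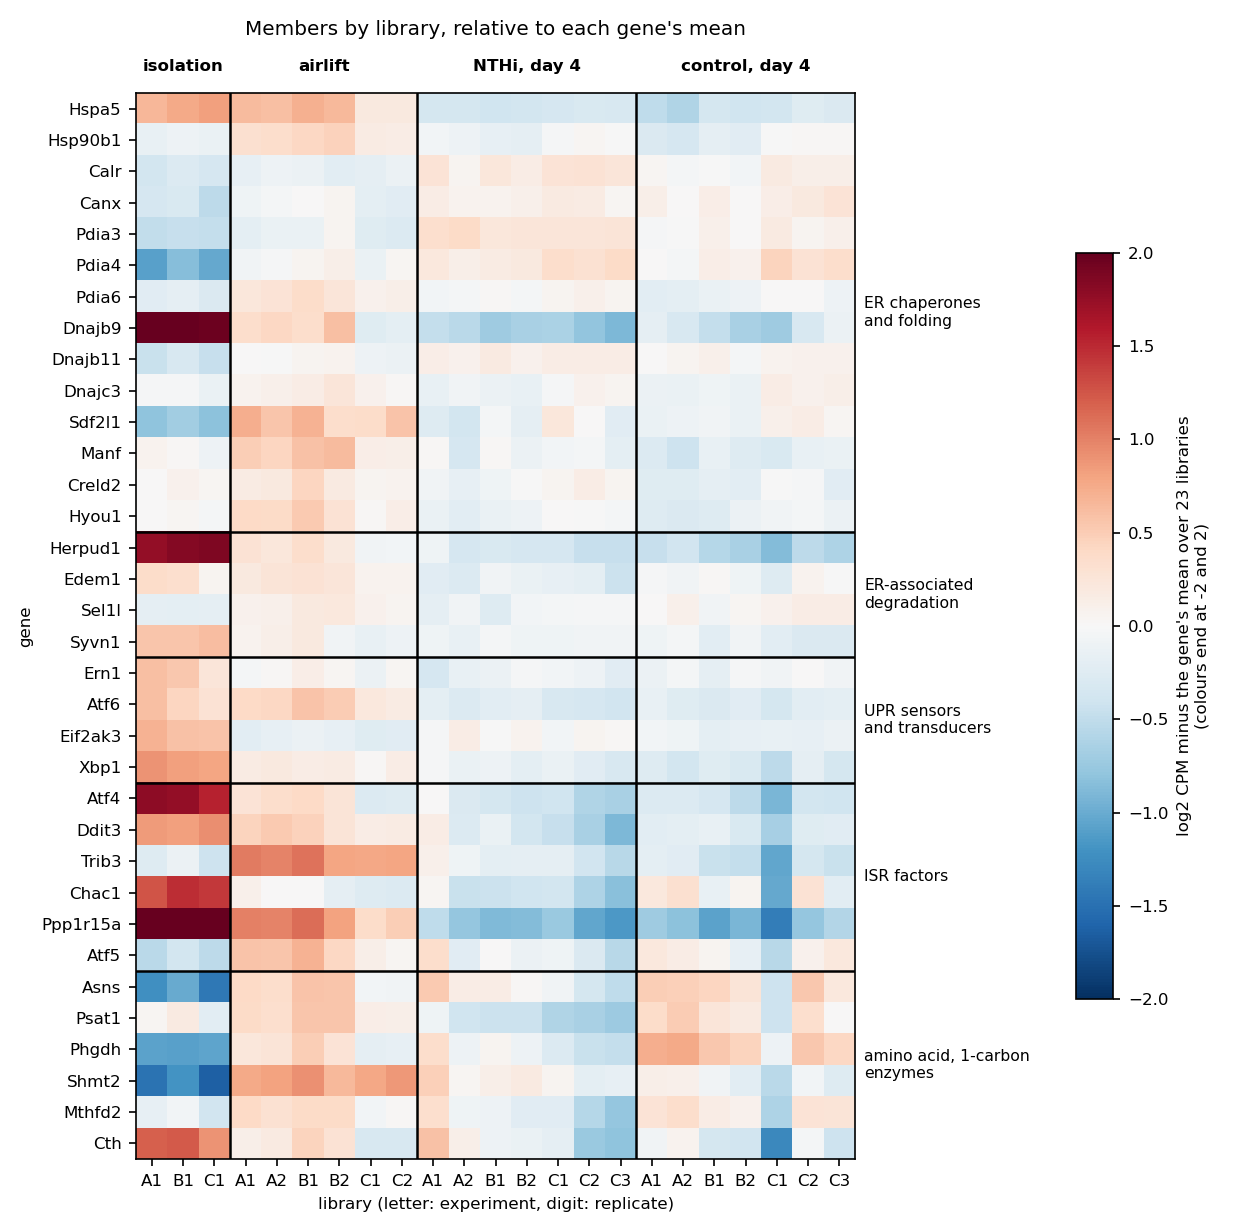
Level of 34 members (rows, grouped by role) in each of the 23 libraries (columns, grouped as isolation, airlift, NTHi and control), as log2 CPM minus the gene's mean over all libraries; Ern2 is left out because it has libraries at 0. Fresh cells are high for Dnajb9, Herpud1, Atf4, Chac1 and Ppp1r15a and low for Asns, Phgdh and Shmt2, and the control library C1 is low for the integrated stress response factors and the enzymes.

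The comparison of NTHi with untreated culture at day 4 asked how the bacterium changed these genes. With NTHi the disulfide isomerase Pdia3, the degradation gene Herpud1 and the sensor gene Eif2ak3 rose slightly, by 0.21, 0.25 and 0.16 on the log2 scale. Psat1 and Phgdh, the first enzymes of serine synthesis, fell by 0.66 and 0.62. Of 34 members tested, 9 were higher and 7 were lower with NTHi, where 20.1% of all 16337 genes tested were higher and 20.4% lower. The changes were small: 0 of the 16 reached a 2-fold change, and they lay between -0.66 and 0.25 on the log2 scale, with a median size of 0.21. The median change of all 34 was 0.05, against -0.000133 for all genes. Scaled by library totals alone in place of TMM, 2 members were higher and 11 lower, where 2282 of all genes were higher and 4416 lower, in place of 3281 and 3338. All 16 had the same sign in each of the 3 experiments. The signs come from the libraries that gave the calls, so here and in the comparisons below their agreement is no separate support. The share among all called genes was not counted.

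Among the 14 chaperones and folding factors, 4 were higher and 1 was lower with NTHi. Pdia3, an isomerase that forms disulfide bonds in glycoproteins, had a lowest, median and highest level of 781, 791 and 865 CPM in NTHi cultures, against 658, 693 and 753 CPM in control cultures. All 7 NTHi libraries lay above all 7 control libraries, a log2 change of 0.21 ± 0.04 (edgeR adjusted p = 0.00109). The change was 0.36 in experiment A, 0.19 in B and 0.13 in C. Calr, a calcium-binding lectin chaperone that works with Pdia3, was at 1282, 1462 and 1510.2 CPM with NTHi, against 1190.3, 1259 and 1399 CPM in control. The ranges overlapped through the NTHi libraries A2 and B2 and the control libraries of experiment C, and the change of 0.17 ± 0.04 passed the test (edgeR adjusted p = 0.0068). Pdia6, another isomerase, rose by 0.12 ± 0.03 and Creld2, a folding factor of the ER lumen, by 0.15 ± 0.04. Of the 8 members with an ERSE match, Calr, Pdia6 and Creld2 were called higher and 0 were called lower. Of the 4 with CARE, 2 were higher and 1 lower. Among all genes tested, 20.1% were higher and 20.4% lower.

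Dnajb9 (ERdj4), a co-chaperone of the ER Hsp70 that is known to restrain IRE1, was the chaperone gene that fell. It was at 49.4, 58.8 and 65.8 CPM with NTHi, against 56.0, 73.4 and 84.3 CPM in control, a log2 change of -0.28 ± 0.08 (edgeR adjusted p = 0.0117) with overlapping ranges. Hspa5 (BiP), the ER Hsp70 and the usual marker of ER stress, was at 649, 670.2 and 689.7 CPM with NTHi, against 561, 661 and 722 CPM in control. The NTHi values lay within the control range, and the difference of 0.05 ± 0.04 did not pass the test (edgeR adjusted p = 0.409). In experiment A alone it was 0.21, since the control libraries of A were the lowest, and in B and C it was 0.003 and -0.03. Hsp90b1 (GRP94), the ER member of the Hsp90 family, showed the same order, with 0.24 in A, 0.03 in B and -0.01 in C. The remaining 7 genes of the group had differences between -0.09 (Sdf2l1) and 0.15 (Manf, edgeR adjusted p = 0.053) and were not called.

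In ER-associated degradation, 1 of 4 genes was higher and 2 were lower. Herpud1, a membrane protein that assembles the degradation complex and whose promoter held both ERSE-II and CARE, was at 120.1, 132 and 157 CPM with NTHi, against 91.3, 111 and 127 CPM in control. The ranges met between 120.1 and 127 CPM, and the change of 0.25 ± 0.05 was seen in each experiment, at 0.22, 0.29 and 0.24 in A, B and C (edgeR adjusted p = 0.00141). Edem1, a lectin that hands misfolded glycoproteins to the pathway, fell by 0.16 ± 0.05, and Sel1l, the adaptor of the ubiquitin ligase Hrd1, fell by 0.16 ± 0.04. Syvn1, which encodes Hrd1 itself, differed by 0.09 ± 0.04 and was not called (edgeR adjusted p = 0.104).

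Of the 4 sensors and transducers that could be tested, 2 were higher. Eif2ak3, the gene of PERK, was at 78.1, 82.0 and 89.7 CPM with NTHi, against 70.5, 72.9 and 78.0 CPM in control. The groups did not overlap but touched, with 78.14 CPM in the lowest NTHi library and 78.03 CPM in the highest control library, and the change was 0.16 ± 0.04 (edgeR adjusted p = 0.00173). Xbp1, whose total level in gene counts does not separate its spliced, active form, was at 148, 168 and 182 CPM with NTHi, against 128, 150.5 and 163 CPM in control. Its ranges overlapped between 148 and 163 CPM, and the change was 0.15 ± 0.05 (edgeR adjusted p = 0.0273). Ern1 and Atf6 differed by -0.08 ± 0.05 and -0.04 ± 0.04, and neither was called.

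The 6 factors of the integrated stress response held 1 gene called higher and 1 called lower. Atf4, the central factor, was at 261, 309.7 and 411 CPM with NTHi, against 217, 317 and 339 CPM in control, a difference of 0.05 ± 0.08 (edgeR adjusted p = 0.656) with overlapping ranges. Ddit3 (CHOP), Ppp1r15a (GADD34, which recruits the phosphatase that reverses eIF2 phosphorylation) and Atf5 differed by -0.09 ± 0.10, 0.03 ± 0.10 and -0.13 ± 0.12. Trib3, a pseudokinase induced downstream of ATF4 and CHOP, rose by 0.23 ± 0.09 (edgeR adjusted p = 0.0469). Chac1, which degrades glutathione, fell by 0.40 ± 0.15 (edgeR adjusted p = 0.0445). Both calls were near the threshold, and each was lost in 11 of the 14 fits that left out 1 library, with an adjusted p of up to 0.118 for Trib3 and 0.112 for Chac1.

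Among the members tested in this fit, the largest changes were in the enzymes, of which 1 was higher and 3 were lower. Psat1, the transaminase of serine synthesis, was at 51.1, 62.4 and 79.1 CPM with NTHi, against 63.5, 99.9 and 119.6 CPM in control. Its log2 change was -0.66 ± 0.09 (edgeR adjusted p = 1.73e-05), with -0.67, -0.64 and -0.67 in experiments A, B and C. Phgdh, which starts serine synthesis, was at 76.8, 98.8 and 136 CPM with NTHi, against 99.3, 154.5 and 179.6 CPM in control, a change of -0.62 ± 0.09 (edgeR adjusted p = 5.94e-05). For both genes the groups overlapped through control library C1 alone: the other 6 control libraries were between 84.9 and 119.6 CPM for Psat1 and between 143 and 179.6 CPM for Phgdh, above each NTHi library.

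Mthfd2, of the mitochondrial folate cycle, fell by 0.36 ± 0.13 (edgeR adjusted p = 0.0405), and Shmt2, the mitochondrial enzyme that splits serine, rose by 0.20 ± 0.08 (edgeR adjusted p = 0.0446). Asns, asparagine synthetase, was at 68.2, 97.8 and 139 CPM with NTHi, against 72.2, 129.8 and 140.1 CPM in control, a difference of -0.31 ± 0.12 that just missed the threshold (edgeR adjusted p = 0.0541). Without control library C1, the lowest of its group, the Asns difference was -0.39 and was called (edgeR adjusted p = 0.00699). Leaving out the lowest control value widens any fall, so this call adds no support. The same omission ended the calls of Shmt2, Trib3 and Xbp1, which then stood at 0.15, 0.16 and 0.12. Cth, which makes cysteine, differed by 0.16 ± 0.16 and was not called (edgeR adjusted p = 0.472). Psph, the phosphatase that completes serine synthesis and is not a member, differed by -0.12 ± 0.06 (edgeR adjusted p = 0.135); it was named after its value was seen.

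**Figure D2:**
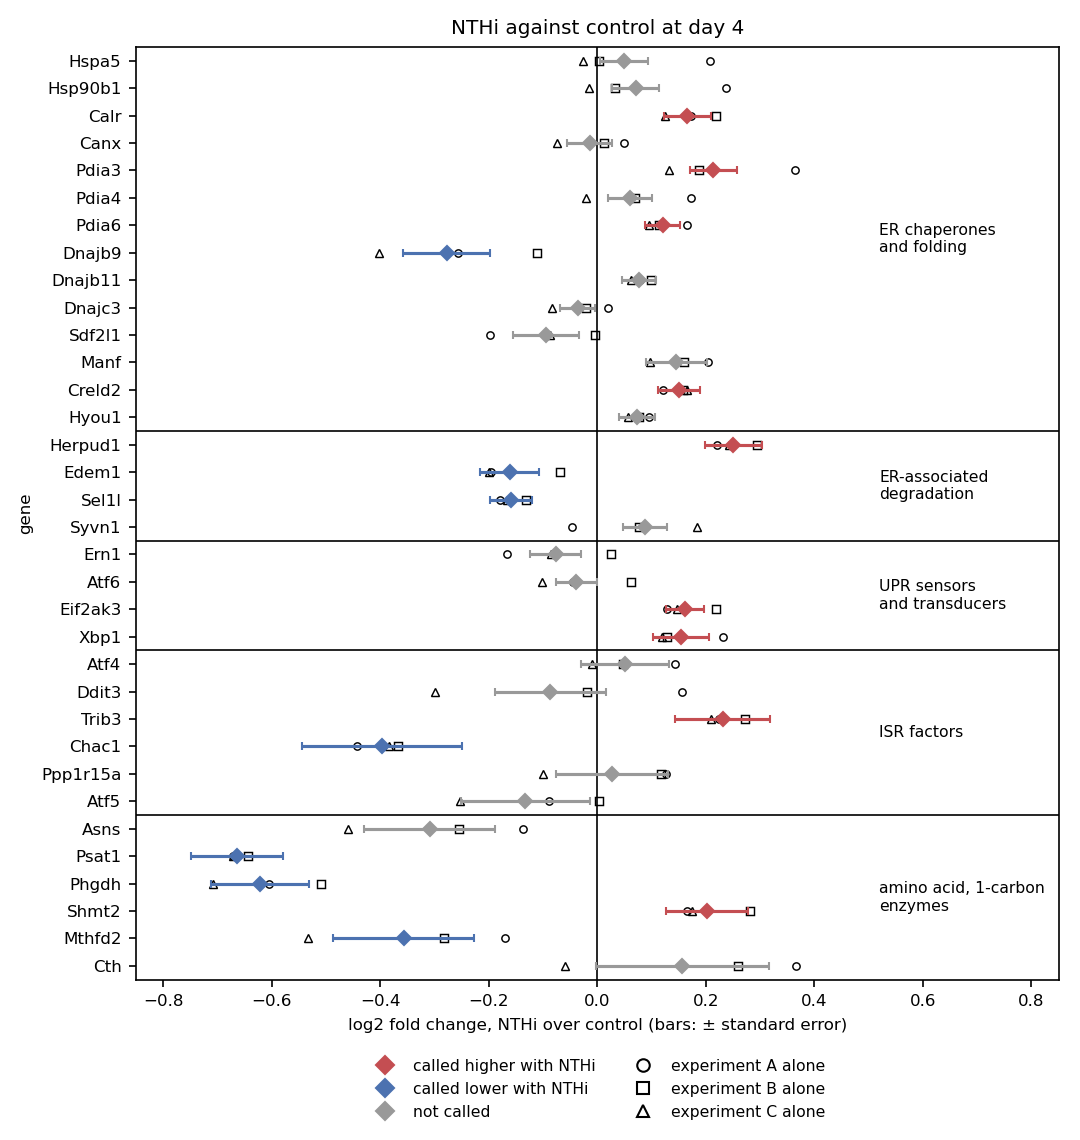
Log2 fold change of NTHi over control at day 4 for 34 members (filled diamonds, bars ± standard error; red called higher, blue called lower, grey not called) and for experiments A, B and C alone (open symbols). Psat1 and Phgdh lie at -0.66 and -0.62 with the 3 experiments close together, while the chaperones lie between -0.28 and 0.21.

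Pdia3, Herpud1, Psat1 and Phgdh were called in every alternative fit that was run, and 10 of the 16 called members were called in each fit that left out a single library. The other 6 were Chac1, Edem1, Mthfd2, Shmt2, Trib3 and Xbp1. A difference in the NTHi effect between experiments was called for 0 members by edgeR's interaction test and 0 by DESeq2's likelihood ratio test, with 3 members below an unadjusted p of 0.05 in each. Markers of other cells moved in the same comparison. The summed level of 8 macrophage markers was between 203 and 788 CPM with NTHi, against 693 and 1456 CPM in control. Among them, 5 were called lower and 1 higher. The sum of 6 AT1 (alveolar type 1) markers was between 1092 and 1158 CPM, against 2337 and 2832 CPM, again with 5 called lower and 1 higher. The 9 plasma and B cell markers summed to between 1350 and 1652 CPM with NTHi and to between 1292 and 1708 CPM in control. Most of that sum was Sdc1, which averaged 1212 CPM with NTHi and 1189 CPM in control. Of the 8 markers tested, 4 were called lower and 0 higher. The plasma cell gene Jchain averaged 8.88 CPM with NTHi and 28.9 CPM in control. The 8 club and secretory markers summed to between 1988 and 2512 CPM with NTHi, against 3180 and 4880 CPM in control. Among these, 5 were called lower and 2 higher. The 8 AT2 markers summed to between 2926 and 3236 CPM, against 3898 and 4558 CPM, but 4 were called higher and 3 lower. Their sum followed Sftpc, which averaged 436 CPM with NTHi and 2178 CPM in control, while Sftpd averaged 1786 and 828 CPM. Of 5 basal markers, 4 were called lower. The 6 neutrophil markers summed to between 6.59 and 24.8 CPM with NTHi, against 4.14 and 7.77 CPM in control. Of the 4 that could be tested, S100a8 and S100a9 were called higher and Cxcr2 lower: S100a8 averaged 14.2 CPM with NTHi and 2.70 CPM in control, Cxcr2 was at 0 with NTHi, and Mpo was at 0 in both groups. The part of these cells in the members' changes was not tested.

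Ern2, the IRE1 paralogue of mucous epithelia (IRE1 beta), was the member with the lowest counts and was not tested in the NTHi comparison because it failed the filter on low counts. It held 6 counts over the 7 NTHi libraries, with 0 to 2 per library, against 65 counts over the 7 control libraries, with 4 to 20 per library. No NTHi library reached the lowest control library. Control was 10.2-fold above NTHi (95% interval 4.45 to 28.9, counting error only), and an exact two-sided permutation test of the CPM over the 14 libraries gave p = 0.000583, the smallest it can give. That test was run for this gene alone, was not adjusted over genes and took no account of experiment. Control counts were 4 to 8 per library in A and B and 10 to 20 in C. Fresh cells held 221 counts, at 0.851, 2.19 and 4.56 CPM in experiments A, B and C, and airlift held 0 counts in each of its 6 libraries. With a floor of 3 counts over the group, or 0.0128 CPM, airlift was at least 197-fold lower than fresh cells. Since between 69.3% and 74.9% of counts below 20 were even in each library, as happens when both reads of a pair are counted, the fragments behind these counts may be fewer.

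The step from fresh cells to airlift asked how the genes changed as isolated cells formed a layer in culture. Atf4, Ppp1r15a, Chac1, Herpud1 and Dnajb9 fell by 1.51 to 1.84 on the log2 scale, while Shmt2, Asns, Phgdh, Sdf2l1 and Trib3 rose by 1.16 to 2.22. Of 35 members, 18 were higher and 13 lower at airlift, where 37.9% of 18302 genes tested were higher and 36.7% lower. The change was 2-fold or more in 12 of the 31, of which 5 were higher and 7 lower, and all 31 had the same sign in each experiment. The median change was 0.17 for the members and 0.0026 for all genes.

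Of the 5 sensors and transducers, 4 were lower at airlift and 0 higher: Ern1 by -0.47 ± 0.07, Xbp1 by -0.71 ± 0.06, Eif2ak3 by -0.81 ± 0.05, and Ern2, given above as a bound; Atf6 differed by -0.08 ± 0.07 and was not called. Eif2ak3 was at 68.8, 71.1 and 75.0 CPM at airlift (lowest, median and highest of 6), against 131, 121 and 119.7 CPM in the fresh libraries of A, B and C. Its fresh libraries all stood above every airlift library.

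Of the 6 stress response factors, 4 were lower and 2 higher at airlift. Atf4 was at 339, 488 and 536 CPM at airlift, against 1407, 1376 and 1186 CPM in fresh cells of A, B and C, a change of -1.58 ± 0.10 (edgeR adjusted p = 1.46e-10). The groups were far apart. Ppp1r15a was at 189, 272 and 316 CPM at airlift, against 887, 823 and 739.8 CPM in fresh cells, a change of -1.68 ± 0.14. Chac1 fell by 1.51 ± 0.17 and Ddit3 by 0.55 ± 0.09. Trib3 went the other way, at 99.4, 108 and 124 CPM at airlift, against 48.9, 53.7 and 43.8 CPM in fresh cells, a change of 1.16 ± 0.11 (edgeR adjusted p = 3.37e-08), and Atf5, a factor related to ATF4, rose by 0.86 ± 0.14.

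In the chaperone group, 10 of 14 genes were higher at airlift and 2 were lower. Of the 8 members with an ERSE match, 4 were higher and 2 lower, and of the 4 with CARE, 2 and 2. Among all genes tested, 37.9% were higher and 36.7% lower. Sdf2l1, which forms a complex with ER co-chaperones, was at 44.5, 51.3 and 57.7 CPM at airlift, against 19.8, 21.4 and 19.7 CPM in fresh cells, a change of 1.32 ± 0.10. The isomerase Pdia4 rose by 0.97 ± 0.09, Pdia6 by 0.44 ± 0.07, Hsp90b1 by 0.43 ± 0.09, and the secreted ER factor Manf by 0.39 ± 0.10. Dnajb9 fell by 1.84 ± 0.14 and stood at 78.0, 117 and 139.7 CPM at airlift, against 392, 399.7 and 359 CPM in fresh cells. Hspa5 was lower by 0.26 ± 0.11 (edgeR adjusted p = 0.0423), at 974, 1307 and 1401 CPM at airlift, against 1345, 1451 and 1511 CPM in fresh cells of A, B and C. The Hspa5 change was -0.06 in A, -0.08 in B and -0.65 in C, whose airlift libraries were the lowest at 974 and 975 CPM. Without C it was -0.09 (edgeR adjusted p = 0.212). The call was also lost in 5 of 16 fits that left out 1 library, among them those without any one of the fresh libraries.

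Herpud1 and Syvn1 fell at airlift by 1.68 ± 0.08 and 0.58 ± 0.06, and Sel1l rose by 0.30 ± 0.06; Edem1 differed by -0.08 ± 0.07 and was not called. Herpud1 was at 158, 193 and 211 CPM at airlift, against 562, 594 and 608 CPM in fresh cells of A, B and C. Of the 6 enzymes, 5 were higher and 1 lower. Shmt2 had the largest rise of any member, at 162, 177 and 194 CPM at airlift, against 36.8, 44.7 and 33.0 CPM in fresh cells, a change of 2.22 ± 0.11 (edgeR adjusted p = 4.48e-12). Asns rose by 1.50 ± 0.15, Phgdh by 1.21 ± 0.13, Mthfd2 by 0.43 ± 0.14 and Psat1 by 0.33 ± 0.11, and Cth fell by 1.05 ± 0.17.

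Other lists moved with this step. The 13 genes of the dissociation and immediate-early response, Atf3 among them, summed to between 1524 and 1808 CPM at airlift, against 11906 to 16272 CPM in fresh cells, and 12 of 13 were called lower. The 8 AT2 markers summed to between 1422 and 1520 CPM at airlift, against 79955 and 104180 CPM, and the 8 club and secretory markers to between 19053 and 26593 CPM, against 156360 and 175480 CPM. The plasma cell genes Jchain and Tnfrsf17 averaged 45.7 and 0.0774 CPM at airlift, against 119 and 0.907 CPM in fresh cells. The part of these in the members' changes was not tested. The 10 genes with most counts took 7.7% to 8.6% of an airlift library and 23.4% to 23.9% of a fresh one, and scaling by library totals alone in place of TMM put the median change of all genes at 0.49. All genes then split into 10131 higher and 4223 lower, in place of 6928 and 6718. Under that scaling Hspa5, Edem1, Ern1 and Atf6 turned to 0.23, 0.41, 0.02 and 0.41, and Ddit3 and Syvn1 were no longer called, at -0.07 and -0.09. The falls of Atf4, Ppp1r15a, Chac1, Herpud1 and Dnajb9 kept their call.

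**Figure D3:**
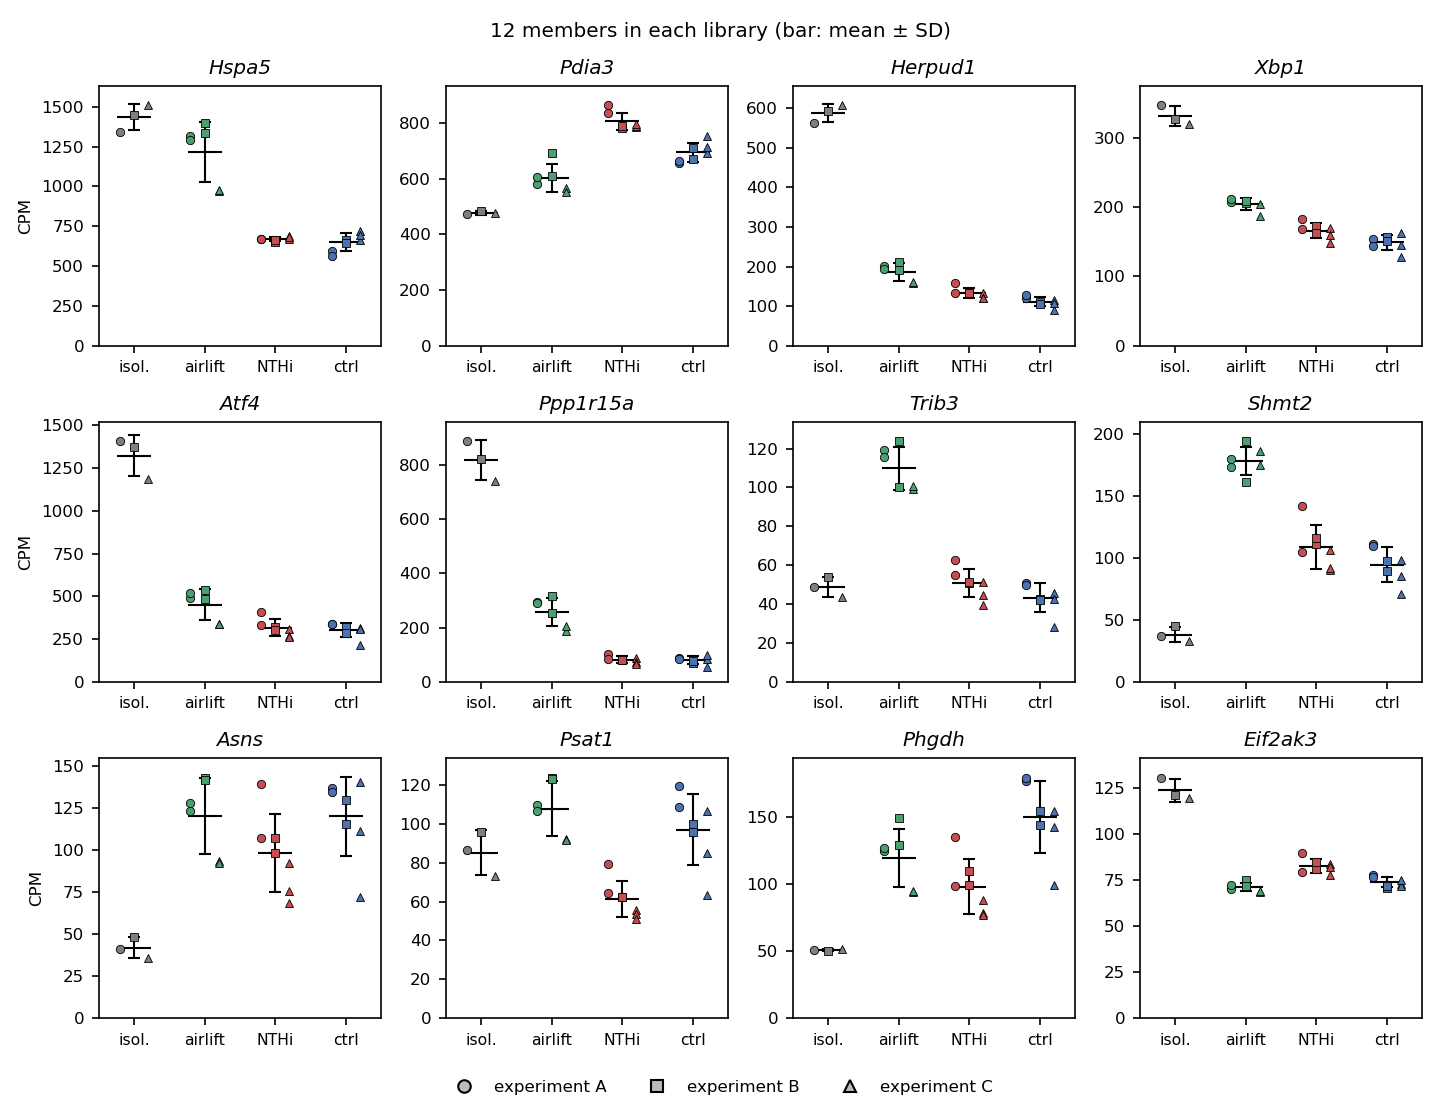
CPM of 12 members in each library of fresh isolation, airlift, NTHi at day 4 and control at day 4 (symbols by experiment, bars mean ± SD, each axis from 0). Atf4 and Ppp1r15a are at 1186 to 1407 and 739.8 to 887 CPM in fresh cells and at most 536 and 316 CPM in every other library, Trib3 and Shmt2 are highest at airlift, and Psat1 and Phgdh are lower with NTHi than in control.

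Untreated culture to day 4 was then set against airlift. Most members that changed were lower at day 4: of 35, 21 were lower and 5 higher, where 27.7% of 18302 genes were lower and 26.9% higher. Of the 26, 25 had the same sign in each experiment, and Dnajc3 did not. The median change was -0.34 for the members and -0.0209 for all genes. This comparison and the one before share the airlift libraries, so a value that is high at airlift by chance raises one and lowers the other.

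Ppp1r15a fell furthest, to 56.4, 83.3 and 97.7 CPM at day 4 (lowest, median and highest), against 189, 272 and 316 CPM at airlift, a change of -1.67 ± 0.12 (edgeR adjusted p = 1.05e-09). Trib3 stood at 28.3, 42.8 and 50.8 CPM, against 99.4, 108 and 124 CPM at airlift, a change of -1.35 ± 0.08 (edgeR adjusted p = 3.26e-10). In both genes every day 4 library was below every airlift library, and 17 of the 35 members had no overlap in this comparison. The share over all genes was not counted. Ddit3, Atf4 and Atf5 were lower by 0.62 ± 0.07, 0.54 ± 0.09 and 0.38 ± 0.11, so that 5 of the 6 stress response factors fell; Chac1 was not called.

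Hspa5 led the chaperones, of which 9 were lower and 3 higher. It stood at 561, 661 and 722 CPM at day 4, against 974, 1307 and 1401 CPM at airlift, with no overlap and a change of -0.92 ± 0.09 (edgeR adjusted p = 7.76e-08). Manf, Dnajb9, Sdf2l1, Hsp90b1, Hyou1 (an ER chaperone of the Hsp110 family), Creld2 and Pdia6 were lower by 0.34 to 0.65, with the sign of each negative in all experiments. Each of these falls, and that of Hspa5, was smallest in experiment C. In A, B and C, Hsp90b1 changed by -0.68, -0.67 and -0.15, and Hspa5 by -1.2, -1.1 and -0.5. Of the 8 members with an ERSE match, 6 were lower and 2, Calr and Canx, were higher. Of the 4 with CARE, 2 were lower and 0 higher. Among all genes tested, 27.7% were lower and 26.9% higher. The lectin chaperones Calr and Canx and their partner Pdia3 rose by 0.17 ± 0.05, 0.19 ± 0.06 and 0.19 ± 0.05. In the fit without experiment C these 3 rises were 0.11, 0.07 and 0.10 and were not called. Herpud1 fell by 0.74 ± 0.07, Atf6 by 0.62 ± 0.06, Xbp1 by 0.47 ± 0.05 and Shmt2 by 0.93 ± 0.08, while Phgdh rose by 0.34 ± 0.09. Ern2 was at least 17.7-fold higher at day 4 than the floor at airlift.

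Cell markers also moved between airlift and day 4. The club and secretory markers summed to between 3180 and 4880 CPM at day 4, against 19053 and 26593 CPM at airlift, although 5 of the 8 were called higher and 2 lower. The AT2 markers summed to between 3898 and 4558 CPM at day 4, against 1422 and 1520 CPM at airlift. The 8 macrophage markers summed to between 693 and 1456 CPM, against 551 and 653 CPM, but 4 were called higher and 3 lower. Marco averaged 395 CPM at day 4 and 120 CPM at airlift, while C1qa averaged 8.45 and 16.5 CPM. The 7 mesenchymal markers summed to between 201 and 502 CPM, against 29.3 and 79.7 CPM. All 7 mesenchymal, 5 basal, 5 multiciliated and 6 AT1 markers were called higher. The part of these cells in the members' changes was not tested.

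**Figure D4:**
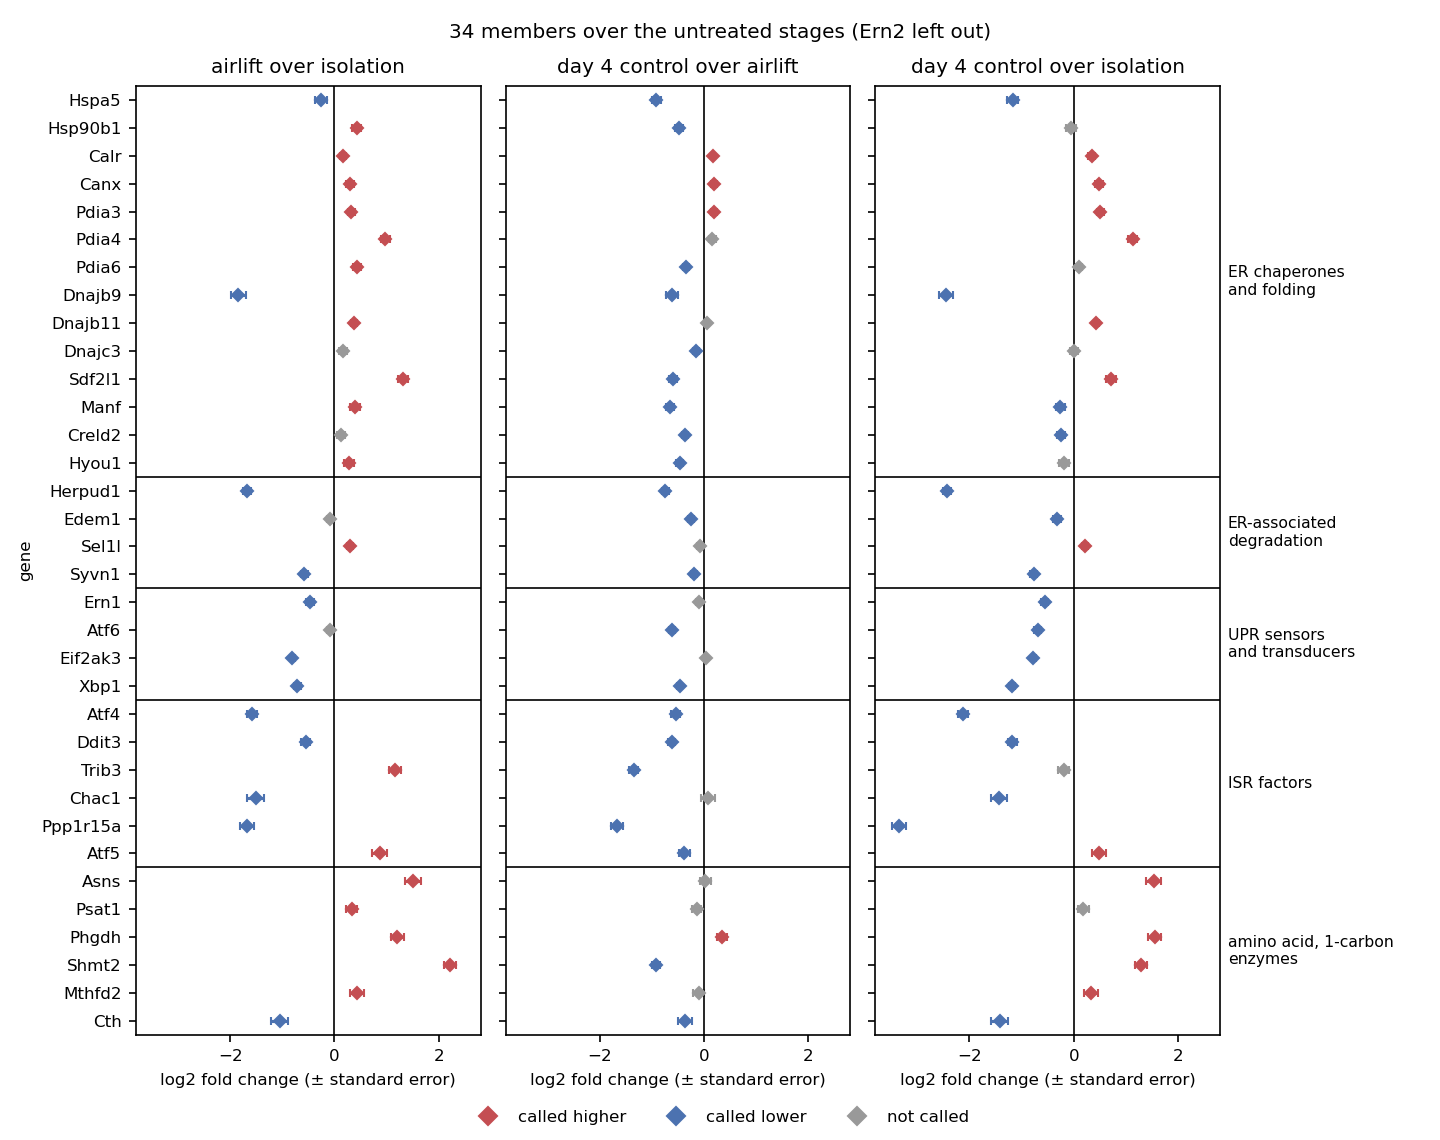
Log2 fold changes (± standard error) of 34 members for airlift over isolation, control at day 4 over airlift and control at day 4 over isolation (red called higher, blue called lower, grey not called); the panels share libraries. Ppp1r15a lies at -1.68, -1.67 and -3.35, Trib3 at 1.16, -1.35 and -0.19, and Asns at 1.50, 0.03 and 1.53.

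Against fresh cells, control cultures at day 4 had 12 members higher and 17 lower, where 38.8% of 18302 genes were higher and 37.7% lower. All 29 had the same sign in each experiment, and the median change was -0.19 for the members and 0.0172 for all genes. This comparison shares its libraries with both earlier ones. By library totals alone, 21 members were higher, and all genes split into 10149 higher and 4497 lower, in place of 7108 and 6904. All 5 sensors and transducers were lower. Of the 8 members with an ERSE match, 2 were higher and 3 lower, and of the 4 with CARE, 1 was higher and 2 lower. Xbp1 was at 128, 150.5 and 163 CPM at day 4, against 347, 327 and 320.2 CPM in fresh cells of A, B and C, a change of -1.18 ± 0.06 (edgeR adjusted p = 3.27e-12). Ppp1r15a fell by 3.35 ± 0.13, Dnajb9 by 2.45 ± 0.13, Herpud1 by 2.42 ± 0.08 and Atf4 by 2.12 ± 0.10, each with no overlap between the groups. Phgdh, Asns and Shmt2 rose by 1.55 ± 0.13, 1.53 ± 0.15 and 1.29 ± 0.11, and Pdia4 by 1.13 ± 0.09, also with no overlap. Lack of overlap was common against the 3 fresh libraries, in 26 of the 35 members, and its share over all genes was not counted. Hsp90b1, Dnajc3 (an inhibitor of PERK and ER co-chaperone), Pdia6, Hyou1, Trib3 and Psat1 were not called. The dissociation list, which summed to between 1274 and 1464 CPM at day 4, again moved in the same comparison, with all 13 genes lower. The AT2 markers summed to between 3898 and 4558 CPM at day 4, against 79955 and 104180 CPM in fresh cells, the club and secretory markers to between 3180 and 4880 CPM, against 156360 and 175480 CPM, and the mesenchymal markers to between 201 and 502 CPM, against 17.8 and 31.6 CPM. The part of these in the members' changes was not tested.

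Other genes of the same pathways were read from lists that share no gene with the members; the background shares given above apply. With NTHi, 10 of 15 genes of COPII vesicles, which carry cargo out of the ER, were higher and 2 lower (median 0.13), with Sec24d at 0.24 ± 0.04. Of 24 other folding and quality control genes, 9 were higher and 7 lower; Agr2, a mucin-folding isomerase, fell by 2.03 ± 0.24 and Txndc5 rose by 0.26 ± 0.05. Of 7 membrane-bound bZIP factors and their proteases, 2 were higher and 0 lower: Creb3l1 (OASIS), a factor of secretory cells related to ATF6, rose by 2.55 ± 0.08, and Creb3l4 by 0.73 ± 0.07. Of 19 other ATF4 targets, 4 were higher, among them Ddit4 at 0.90 ± 0.05, and 2 lower, among them Sesn2 at -0.37 ± 0.04. Amino acid transporters had 4 of 8 lower and 1 higher (median -0.28), with Slc1a5 at -0.45 ± 0.04, Slc1a4 at -0.31 ± 0.06 and Slc7a5 at -0.47 ± 0.10. The tRNA synthetases had 5 of 13 lower and 1 higher.

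Of 17 other degradation genes 4 were higher and 1 lower, of 17 translocon and signal peptidase genes 5 and 1, of 15 genes of the eIF2 kinases, phosphatase and eIF2B 1 and 3, of 10 mitochondrial quality control genes 1 and 6, and of 11 cytosolic heat shock genes 0 and 5. Eif2ak2, the kinase PKR, was the gene of the eIF2 list that rose, by 0.36 ± 0.06, and Hspb1, a small heat shock protein, fell by 0.74 ± 0.13.

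At airlift against fresh cells, 12 of 13 tRNA synthetases were higher and 0 lower (median 0.47), with Iars1 at 1.57 ± 0.06 and Wars1 at 1.28 ± 0.06. Of 19 other ATF4 targets, 9 were higher and 6 lower: Aldh1l2, of the mitochondrial folate cycle, rose by 3.97 ± 0.18, while Atf3 and Sesn2 fell by 3.87 ± 0.12 and 1.96 ± 0.08. Of 11 cytosolic heat shock genes, 9 were lower and 1 higher (median -1.04), and of 9 amino acid transporters 6 were lower and 3 higher. Among 17 translocon genes 12 were higher and 1 lower, with Spcs3 at 1.79 ± 0.05. Of 7 bZIP factors and proteases 4 were higher and 1, Creb3l1, lower by 2.21 ± 0.11. Of 24 other folding genes 14 were higher and 7 lower, of 17 other degradation genes 7 and 3, of 15 COPII genes 8 and 2, of 15 genes of the eIF2 list 10 and 4, and of 10 mitochondrial genes 7 and 2.

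At day 4 in control against airlift, counts by list were as follows. Of 15 COPII genes 1 was higher and 10 lower, with Sec24d at -0.91 ± 0.04, of 17 translocon genes 3 were higher and 9 lower, of 17 other degradation genes 2 and 7, of 9 amino acid transporters 1 and 6, and of 10 mitochondrial genes 2 and 5. Other ATF4 targets had 7 of 19 higher and 6 lower, other folding genes 8 of 24 and 9, tRNA synthetases 5 of 13 and 3, bZIP factors and proteases 3 of 7 and 1, the eIF2 list 2 of 15 and 4, and heat shock genes 2 of 11 and 3. Among the folding genes, Ero1a, the oxidase that feeds the isomerases, fell by 1.94 ± 0.08, and Agr2 rose by 3.54 ± 0.30.

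At day 4 in control against fresh cells, 11 of 13 tRNA synthetases were higher and 0 lower, with Iars1 at 1.56 ± 0.06, and 7 of 9 amino acid transporters were lower and 0 higher, with Slc38a2 at -1.87 ± 0.08. Other ATF4 targets had 12 of 19 higher and 6 lower, the eIF2 list 10 of 15 and 4, other folding genes 13 of 24 and 7, translocon genes 8 of 17 and 4, other degradation genes 5 of 17 and 6, COPII genes 5 of 15 and 5, bZIP factors and proteases 4 of 7 and 1, mitochondrial genes 7 of 10 and 1, and heat shock genes 1 of 11 and 8.

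The coefficient of variation over the 7 NTHi libraries had a median of 5.72% for the 14 chaperones, 17.5% for the 6 stress response factors and 22.3% for the 6 enzymes, and over the 7 control libraries 7.16%, 17.1% and 19.1%. Without NTHi library C3 these medians were 6.09%, 15.5% and 20%. Without control library C1 they were 7.32%, 8.99% and 10.3%, so the control spread of the last 2 groups rested in large part on C1. Leaving out the lowest library of a group tends to narrow its spread. Control library C1 held the lowest control value for all 6 stress response factors and all 6 enzymes, and for 1 of the 14 chaperones, Dnajb9. Against the mean of the other 2 control libraries of experiment C, its stress response factors were lower by a median of 0.67 on the log2 scale, from -1.06 (Chac1) to -0.41 (Ddit3), its enzymes by 0.69, from -1.03 (Cth) to -0.38 (Shmt2), and its chaperones differed by a median of 0.008. In NTHi library C3 all 12 of these genes were also below the mean of the other 2 NTHi libraries of C, with medians of -0.30 for the stress response factors and -0.20 for the enzymes. The NTHi spread of these genes did not come from C3 alone, since NTHi library A1 held the highest NTHi value for all 12. Atf4 was at 411 CPM in A1 and 334 CPM in A2, and Asns at 139 and 107 CPM. Without control C1 and NTHi C3, 10 members were called higher and 8 lower with NTHi, and Psat1 and Phgdh stood at -0.71 and -0.65. Why these libraries differed from their groups was not tested.

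**Figure D5:**
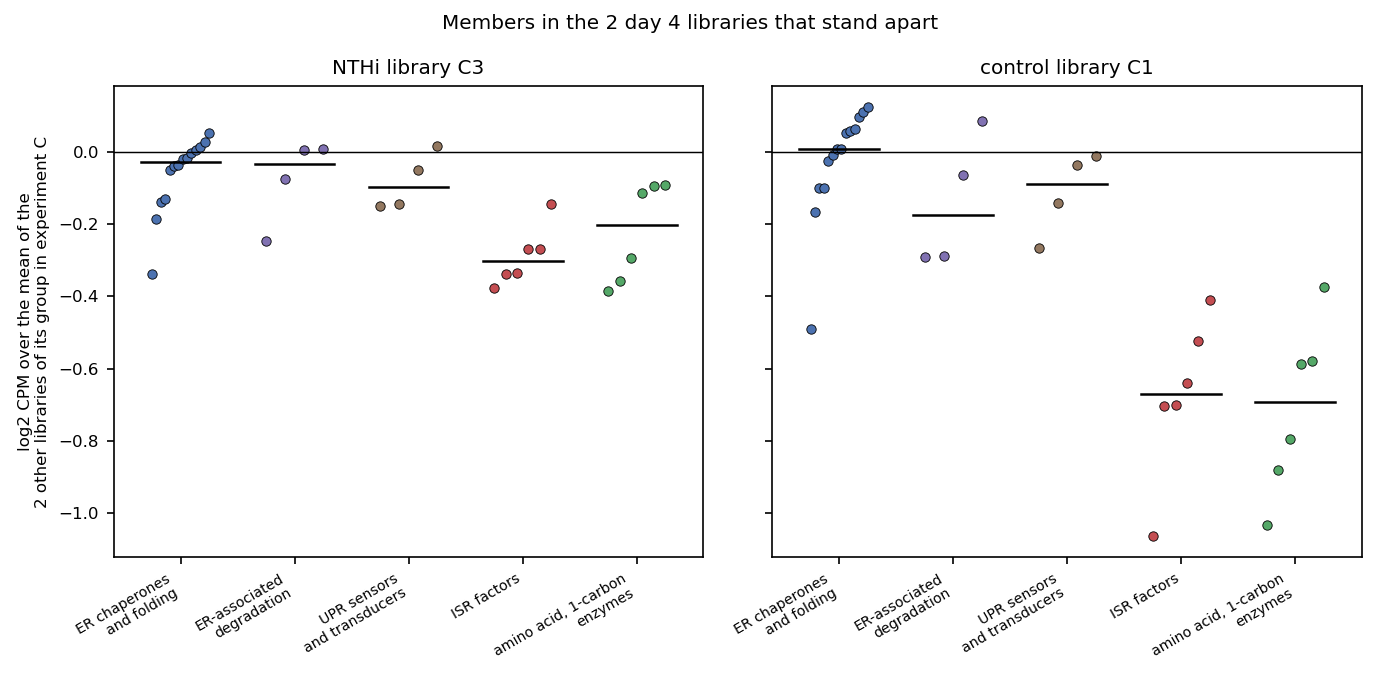
Members in NTHi library C3 (left) and control library C1 (right), as log2 CPM over the mean of the other 2 libraries of the same group in experiment C, by role (points are genes, lines medians, Ern2 left out). In control C1 the stress response factors and enzymes lie between -1.06 and -0.38 while the chaperones lie between -0.49 and 0.12.

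Reads of genes that share a stretch of genome may be counted to either. In the GENCODE annotation of GRCm38, 12 of the 35 members have an exon that overlaps an exon of another gene, among them Ddit3, Shmt2, Ppp1r15a, Pdia3 and Eif2ak3. Strand use in counting is not given in the sources used here, so for these 12 the reads of the partner cannot be told apart.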

How the data were processed

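Bulk RNA-seq of 23 libraries was deposited by the authors as 3 tables of raw counts per gene, 1 per experiment, with whole numbers and no normalisation. Per the submitters' processing notes, the tools included STAR and DESeq2 and the build was GRCm39; which tool counted, and how, is not given in the sources used here. Of 41098 lines in each file, 25 were broken fragments and were left out. The members and the gene lists were chosen with earlier results of these data known.

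Genes were filtered with filterByExpr (minimum count 10), scaled by TMM and tested with the edgeR 4.0.16 quasi-likelihood F-test in R 4.3.3, with group and experiment as terms and Benjamini-Hochberg adjustment over all genes. NTHi and control were fitted on the 14 day 4 libraries, and the untreated stages on the 16 untreated libraries. CPM use TMM-scaled totals of all 23 libraries. A standard error is the log2 change divided by the root of F. Members are all named; of each related list, counts and up to 3 called genes with the smallest p. Replicates of a group differed by more than sampling noise. The tests were tried on simulated counts. Alternatives were library totals, DESeq2 size factors, DESeq2 1.42.0, limma-voom (limma 3.58.1), no low-count filter, no experiment term, summed counts, halved counts, all libraries in one fit, a replicate block, and leaving out experiments or libraries; leaving out control C1 with NTHi C3 was added after the data were seen. No GRCm39 coordinates were used here; promoter windows are RefSeq's, on GRCm38.p6. The interval and floors for Ern2 cover counting error only.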

Additional observations from a re-analysis of the deposited data

Results flagged for a closer look

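In 7 of 104 combinations of a member and a group of 4 or more libraries, the highest or lowest library lay far from the rest of its group; chance marks about 1 in 20 groups. Of these, 4 were the control library C1, with the lowest value each time: Ddit3 at 14.7 CPM (next 18.7), Trib3 at 28.3 CPM (next 42.0), Asns at 72.2 CPM (next 111) and Mthfd2 at 41.5 CPM (next 67.6). The highest libraries were NTHi A1 for Herpud1, at 157 CPM with the next at 134 CPM, and airlift B1 for Creld2, at 69.0 CPM with the next at 59.0 CPM. The lowest airlift library for Xbp1 was C1, at 188 CPM with the next at 205 CPM.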

How the results depend on the processing

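Of the members called, 4 of 16 for NTHi, 23 of 31 for airlift against isolation, 18 of 26 for day 4 control against airlift and 23 of 29 for day 4 control against isolation were called with the same sign in all alternatives other than single-library omissions, and 10, 28, 23 and 27 in all of those omissions. For NTHi, scaling by library totals alone gave 2 members higher and 11 lower, dropping experiment A left 3 lower, and dropping experiment B left 3 higher and 4 lower. Leaving out single libraries gave 6 to 10 higher and 4 to 9 lower; the lowest count, 4, came without NTHi A2, control B1, control C2, control C3 or NTHi C3. Library totals gave 21 members higher for day 4 control against isolation, and in that comparison Hsp90b1, Manf, Creld2, Hyou1, Edem1 and Trib3 turned to 0.42, 0.22, 0.24, 0.29, 0.15 and 0.28; for airlift against isolation Hspa5, Edem1, Ern1 and Atf6 turned to 0.23, 0.41, 0.0196 and 0.41. That scaling put the median of all genes at 0.49 in both. Dnajc3, at 0.00 for day 4 control against isolation, was at -0.14 without experiment C. For day 4 control against airlift, 3 members were higher with summed counts and 2 without experiment C. The replicate block gave 3 higher there, but the labels do not say that the numbers pair libraries. Same-numbered control and airlift libraries correlated between -0.142 and 0.00836 in their deviations, and same-numbered control and NTHi libraries between -0.68 and 0.27. Other causes were not tested. Calls that a single omission ended were Hspa5, Calr (isolation C1) and Psat1 (isolation A1) at airlift, Canx (airlift C2), Dnajc3 and Cth at day 4 against airlift, and Manf (isolation A1) and Mthfd2 at day 4 against isolation. Depth limits the values of Ern2.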
